A study of Arabidopsis thaliana with 2 samples.

Results

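The phi class of glutathione transferases was followed through 9 Arabidopsis thaliana genes, GSTF2, GSTF3, GSTF6, GSTF7, GSTF8, GSTF9, GSTF10, GSTF12 and GSTF14, whose RNA was compared between jmj17-1 and wild-type (WT) seedlings. In jmj17-1, GSTF6, GSTF2 and GSTF7 were each more than 2-fold higher than in WT, while the very abundant GSTF9 was within 1.1-fold and GSTF14 was lower. The genes were selected on locus identifiers, and all 9 were found among 26743 features of the expression table. The list was chosen with the jmj17-1 over WT ratios of these libraries known, so those ratios are given as a description and carry no test. The class has 4 further genes, GSTF4, GSTF5, GSTF11 and GSTF13, which stand outside the list and were set beside it.

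The jmj17-1 library came from seedlings mutant for JMJ17, an enzyme that removes methyl groups from lysine 4 of histone H3, and the WT library from the Col-0 background that both genotypes share. Both were made from whole seedlings aged 7 days, grown on sucrose-free 1/2MS plates with 16 h of light and 8 h of darkness. No source used here gives the lesion of jmj17-1 or how many seedlings went into a library, and only 1 mutant allele was measured. There was 1 library per genotype, so no difference below has a replicate check, and a difference between these libraries is not shown to be one between the genotypes. JMJ17 itself (AT1G63490) stood at 2.90 RPKM in jmj17-1 and 5.48 in WT, a log2 ratio of -0.73, so its RNA was lower in the library labelled as mutant but still present. Levels are RPKM, which scales reads to feature length and library depth, and rested on an estimated 45403267 reads in jmj17-1 and 53890006 in WT. Because whole seedlings were sampled, fewer cells of a type and less RNA per cell cannot be told apart.

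Glutathione transferases join the tripeptide glutathione to reactive, electron-poor molecules, which are then moved into the vacuole and broken down. The phi class is found in plants and, with the larger tau class, is best known from the detoxification of herbicides. Several phi genes are classic markers of the response to pathogens, salicylic acid, hydrogen peroxide and foreign chemicals, whereas others are expressed steadily at high levels. Some of the proteins bind and carry small molecules, such as flavonoids, rather than only conjugating them.

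The members fall into groups of close relatives, and these are shown first because they limit how far a read can be given to 1 gene. GSTF6 and GSTF7 were identical at 94.3% of aligned coding positions, GSTF2 and GSTF3 at 94.5%, and GSTF9 and GSTF10 at 77.6%. GSTF12 was closest to GSTF11, outside the list, at 75.3%. GSTF8 and GSTF14 had no such relative, with their nearest at 56.0% (GSTF4) and 52.9% (GSTF3). The first 90 coding bases of both near-identical pairs are printed 5′ to 3′ from RefSeq TAIR10.1, with capitals at the bases that differ within a pair. GSTF6 was read from the minus strand of chr1:662102-662191, GSTF7 from the minus strand of chr1:659616-659705, GSTF2 from the minus strand of chr4:1111442-1111531 and GSTF3 from the minus strand of chr2:852017-852106.
GSTF6: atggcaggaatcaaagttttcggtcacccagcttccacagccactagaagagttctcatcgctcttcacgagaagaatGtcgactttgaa
GSTF7: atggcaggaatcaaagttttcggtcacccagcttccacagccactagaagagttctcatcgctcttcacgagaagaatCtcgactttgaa
GSTF2: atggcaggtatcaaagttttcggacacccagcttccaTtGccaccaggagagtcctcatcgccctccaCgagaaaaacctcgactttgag
GSTF3: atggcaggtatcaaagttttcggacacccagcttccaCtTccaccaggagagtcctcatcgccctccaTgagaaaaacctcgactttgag
Over these bases GSTF6 and GSTF7 differed at 1 position, and GSTF2 and GSTF3 at 3. Along the whole transcripts, 107 of 1137 windows of 50 bases in GSTF6 (9.41%) also occurred exactly in GSTF7, and 35 of 997 windows in GSTF3 (3.51%) occurred in GSTF2. In GSTF2, 755 of 1422 windows (53.1%) occurred in GSTF3 or in TOC159, a gene of the other strand that overlaps it. GSTF8, GSTF9, GSTF10, GSTF12 and GSTF14 shared 0 such windows when 1 transcript was taken per gene, the longest coding one, although GSTF8, GSTF10 and GSTF12 overlap neighbouring genes in the annotation, as given below. No source used here tells how the authors counted reads that match more than 1 gene, so the split within a near-identical pair is uncertain.

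Among the stress-inducible genes, GSTF6 (AT1G02930), which is induced by pathogens and has been linked to camalexin synthesis, showed the largest fold of the members. It stood at 70.7 RPKM in jmj17-1 and 21.8 RPKM in WT. This was 3.25-fold, with a 95% counting interval of 3.06 to 3.46 on about 3810 reads in jmj17-1 and 1390 in WT, and a log2 ratio of 1.66, the 16th highest of 18969 analysed features. Here and below the log2 ratio is of RPKM + 1, jmj17-1 over WT, in which low genes show less than their true change, and folds are plain ratios of RPKM. The intervals are exact Clopper-Pearson intervals on approximate reads and cover counting error only.

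GSTF7 (AT1G02920), the near-identical neighbour of GSTF6 and likewise a defence-induced gene, stood at 32.9 RPKM in jmj17-1 and 14.5 RPKM in WT. This was 2.28-fold (2.10 to 2.47), a log2 ratio of 1.13. GSTF6 was therefore higher than GSTF7 in both libraries, but by 2.15 times in jmj17-1 and 1.504 times in WT. With both genes summed, which removes the question of how reads were split between them, the level was 103.7 RPKM in jmj17-1 and 36.2 RPKM in WT, 2.86-fold.

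GSTF2 (AT4G02520), a protein that binds auxin-transport inhibitors, camalexin and flavonoids, stood at 100.2 RPKM in jmj17-1 and 44.7 RPKM in WT. This was 2.24-fold (2.15 to 2.33), a log2 ratio of 1.15, close to that of GSTF7. Its near-identical relative GSTF3 (AT2G02930) was barely detected, at 0.650 RPKM in jmj17-1 and 0.489 RPKM in WT, with an interval of the fold from 0.763 to 2.27. Its mean of 0.569 RPKM was under the 1 RPKM asked of an analysed feature, so it entered no count. GSTF2 exceeded GSTF3 by 154 times in jmj17-1 and 91.5 times in WT, and the sum of the pair was 2.23-fold higher in jmj17-1.

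GSTF2 lies at chr4:1110343-1112033 on the minus strand and overlaps TOC159, the import receptor of the chloroplast envelope, which is read from the other strand. The overlap covers 890 exonic bases, 60.5% of those of GSTF2. TOC159 stood at 86.4 RPKM in jmj17-1 and 84.5 RPKM in WT, a log2 ratio of 0.03. Whether strand was used in counting is not given, so reads of the overlap cannot be told apart and the GSTF2 level is uncertain. AT4G02530, which lies 49 bases away on the other side and on the strand of GSTF2, had 211.0 RPKM in jmj17-1 and 210.7 RPKM in WT. Both genes next to GSTF2 thus stood at nearly equal levels in the libraries, unlike GSTF2.

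GSTF8 (AT2G47730), long used as a marker of early stress and salicylic acid responses, did not share the pattern of GSTF2, GSTF6 and GSTF7. It stood at 94.9 RPKM in jmj17-1 and 108.0 RPKM in WT, 0.878-fold (0.856 to 0.901) and a log2 ratio of -0.19. In jmj17-1 its level was 0.946 times that of GSTF2, against 2.42 times in WT, so the order of these 2 genes was turned round. The gene lies at chr2:19556326-19559485 on the plus strand and shares 9.14% of its exonic bases with AT2G47720 of the same strand. The order of the 9 members by level was otherwise the same in both libraries.

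**Figure D1:**
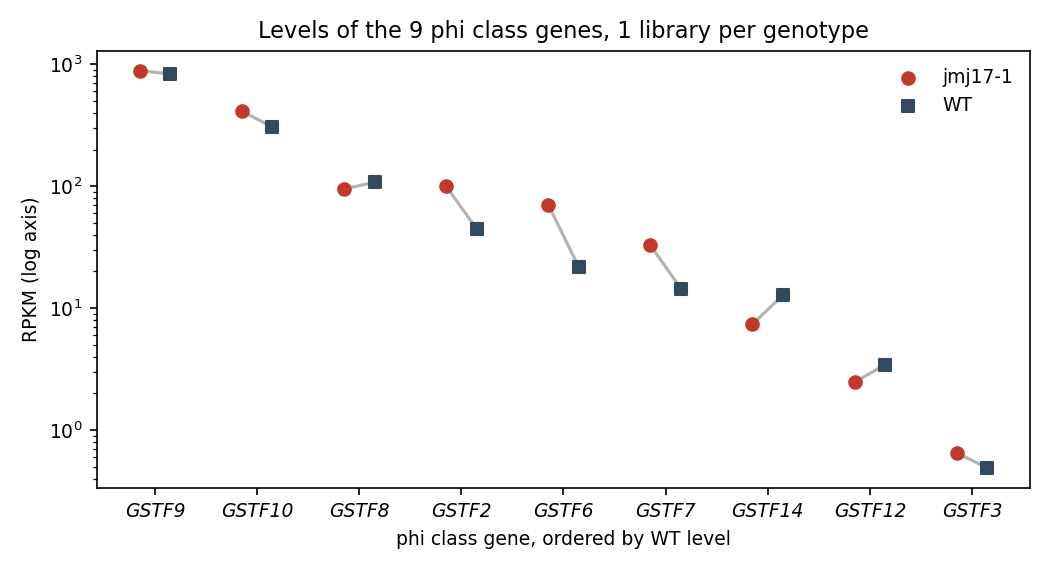
RPKM on a log axis for each of the 9 phi class genes, ordered by WT level; red circles are jmj17-1, dark squares are WT, with 1 library each and no error bars. GSTF2, GSTF6 and GSTF7 have clearly separated points, from 32.9 to 100.2 RPKM in jmj17-1 against 14.5 to 44.7 RPKM in WT, while the points of GSTF9 lie together near the top.

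GSTF9 and GSTF10, neighbours on chromosome 2, are the steadily expressed members and were by far the most abundant. GSTF9 (AT2G30860) stood at 888.2 RPKM in jmj17-1 and 834.5 RPKM in WT, 1.06-fold with a log2 ratio of 0.09. Of all 26743 features, it ranked 66th by level in jmj17-1 and 75th in WT. GSTF10 (AT2G30870), whose protein was found to interact with the receptor kinase BAK1, stood at 414.3 RPKM in jmj17-1 and 305.3 RPKM in WT. Its fold was 1.36 (1.33 to 1.38), with a log2 ratio of 0.44. GSTF10 was thus under the 2-fold size but above its neighbour GSTF9, and the level of GSTF9 was 2.14 times that of GSTF10 in jmj17-1 and 2.73 times in WT.

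GSTF12 and GSTF14 were lower in jmj17-1, and GSTF12 was low in both libraries. GSTF12 (AT5G17220), also known as TT19, is needed for anthocyanin and proanthocyanidin precursors to reach the vacuole. It stood at 2.47 RPKM in jmj17-1 and 3.44 RPKM in WT, from about 123 and 203 reads, with a fold of 0.717 (0.570 to 0.904) and a log2 ratio of -0.36. Its gene, at chr5:5658416-5659661 on the plus strand, shares 9.85% of its exonic bases with PSY, the phytoene synthase gene of the other strand. PSY had 78.6 RPKM in jmj17-1 and 79.97 RPKM in WT. Strand use in counting is not given, so reads of this overlap cannot be told apart and the GSTF12 level is uncertain. GSTF14 (AT1G49860), at chr1:18458526-18459969 on the plus strand, stood at 7.38 RPKM in jmj17-1 and 12.8 RPKM in WT, 0.576-fold (0.509 to 0.649) and a log2 ratio of -0.72. GSTF14 was the only member more than 1.5-fold lower, while its neighbours were nearly equal, AT1G49850 at 7.76 RPKM in jmj17-1 and 7.70 RPKM in WT and AT1G49870 at 6.29 RPKM in jmj17-1 and 6.15 RPKM in WT.

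Counted over the class, 3 of the 8 members analysed were at least 2-fold higher in jmj17-1 and 0 were at least 2-fold lower. In the background of all 18969 analysed features, 0.970% passed 2-fold in either direction and 0.390% were at least 2-fold higher. At 1.5-fold, 4 of 8 members passed, 3 higher and 1 lower, against 3.44% of all features. Because the list was drawn up with these ratios known, nothing is read from the excess of the members over the background. The median log2 ratio was 0.26 over the 8 analysed members and 0.04 over all features, whose SD was 0.28. The member median lies between unlike groups, with 3 genes from 1.13 to 1.66, 3 from -0.19 to 0.44 and 2 from -0.72 to -0.36.

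Just inside the 2-fold limit stood GSTF7 at 1.13 and GSTF2 at 1.15, and the next member outside it was GSTF10 at 0.44. The 4 phi genes outside the list had log2 ratios from -0.07 to 0.14. GSTF4, which overlaps a long noncoding RNA gene of the other strand, stood at 5.17 RPKM in jmj17-1 and 5.22 RPKM in WT. GSTF11, linked to the synthesis of aliphatic glucosinolates, stood at 12.7 RPKM in jmj17-1 and 11.4 RPKM in WT, and its exons lie wholly within the NAC045 gene of the other strand. GSTF13 stood at 1.91 RPKM in jmj17-1 and 2.06 RPKM in WT, and GSTF5 at 0.473 RPKM in jmj17-1 and 0.376 RPKM in WT, too low to be analysed. Over the 13 phi genes, 11 were analysed, 3 were at least 2-fold higher, and the median log2 ratio was 0.09.

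**Figure D2:**
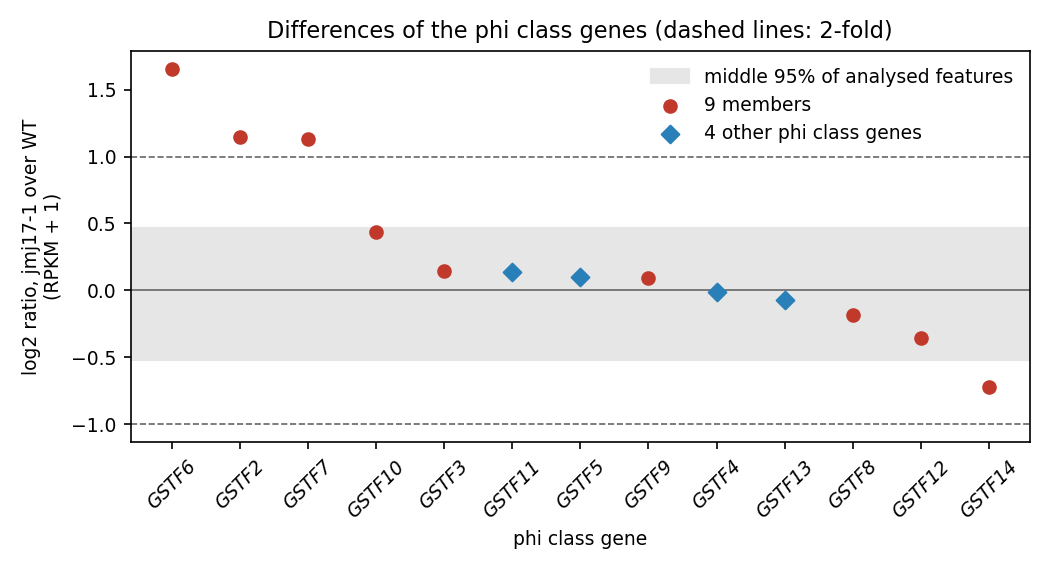
Log2 ratio, jmj17-1 over WT (RPKM + 1), of the 9 members (red circles) and the 4 other phi class genes (blue diamonds), ordered by size. The grey band holds the middle 95% of analysed features (-0.52 to 0.46) and dashed lines mark 2-fold; GSTF6, GSTF2 and GSTF7 lie above the upper line and GSTF14 lies below the band.

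**Figure D3:**
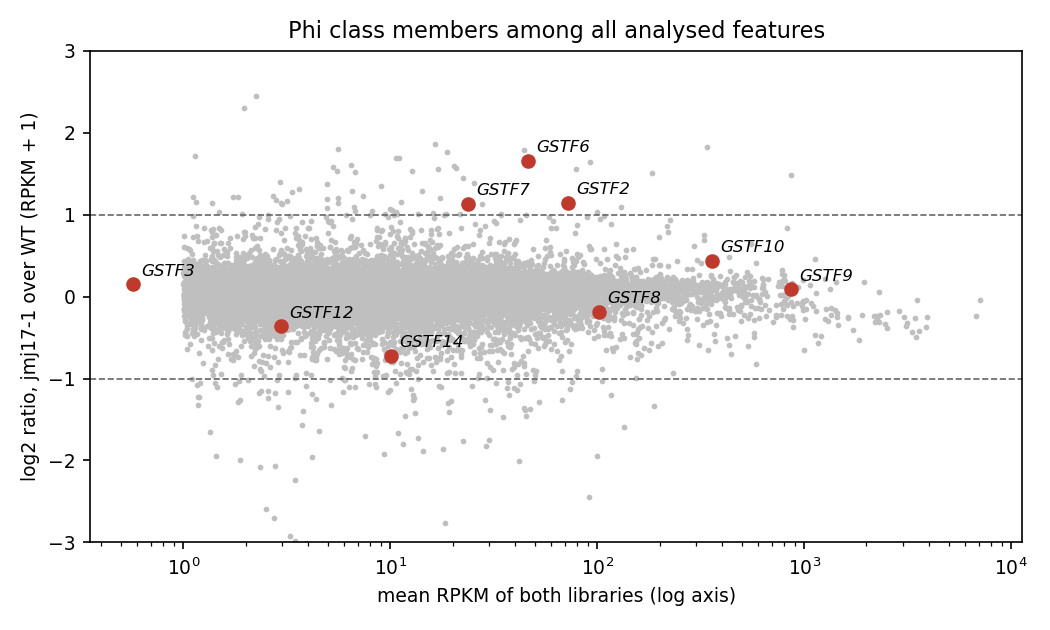
Log2 ratio, jmj17-1 over WT (RPKM + 1), against the mean RPKM of both libraries on a log axis, for all 18969 analysed features (grey; 14 lie beyond the vertical range shown) and the 9 members (red). Dashed lines mark 2-fold; GSTF9 and GSTF10 are at the right end near 0, and GSTF6, GSTF2 and GSTF7 stand above the upper line.

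The composition of the phi RNA pool also differed. The 9 members summed to 1611.8 RPKM in jmj17-1 and 1345.6 RPKM in WT, 1.20-fold, a difference of 266.3 RPKM. GSTF2, GSTF6 and GSTF7 together made up 12.7% of the sum in jmj17-1 and 6.02% in WT, while GSTF9 and GSTF10 made up 80.8% in jmj17-1 and 84.7% in WT. Most of the pool was therefore GSTF9 and GSTF10 RNA in both libraries. Of the summed difference, GSTF10 alone held 40.9%, GSTF2 held 20.8%, GSTF9 held 20.2% and GSTF6 held 18.4%. GSTF10 and GSTF9, small in fold, thus carried more of the added RPKM than the 3 genes past 2-fold, which held 46.2%. This split is of RPKM as deposited and depends on the scaling of the libraries. With the median of all features set to 0, the log2 ratio of GSTF9 was 0.05 instead of 0.09. The split under other scalings was not tested. GSTF8 took 5.89% of the pool in jmj17-1 and 8.03% in WT.

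GSTF6 and GSTF7 belong to a tandem array on the minus strand of chromosome 1, in the order GSTF7, GSTF6, GSTF5 and GSTF4, with GSTF7 at chr1:658578-659980 and GSTF6 at chr1:661088-662475. Distances here run from the last coordinate of a gene to the first coordinate of the next. They are 1108 bases from GSTF7 to GSTF6, 488 from GSTF6 to GSTF5, and 829 from GSTF5 to GSTF4. The log2 ratios along the array were 1.13 for GSTF7, 1.66 for GSTF6, 0.10 for GSTF5 and -0.01 for GSTF4. The difference was thus found in the pair of near-identical genes and not in GSTF4. LPA1, a photosystem II assembly gene 362 bases beyond GSTF7, stood at 41.3 RPKM in jmj17-1 and 37.5 RPKM in WT. AT1G02960, on the far side of GSTF4, stood at 9.08 RPKM in jmj17-1 and 9.46 RPKM in WT. Both flanking genes stood within 1.5-fold. GSTF9 and GSTF10 form a second array 898 bases apart on the plus strand of chromosome 2, at chr2:13138882-13140392 and chr2:13141290-13142676. GSTF10 also overlaps SWAP70 of the other strand by 12 bases, and SWAP70 stood at 10.5 RPKM in jmj17-1 and 10.4 RPKM in WT. The other measured neighbours, XT2 beside GSTF2, AT2G47710 beside GSTF8, AT2G30890 beside GSTF10, and AT5G17210 and SDG40 beside GSTF12, had log2 ratios from -0.15 to 0.11.

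**Figure D4:**
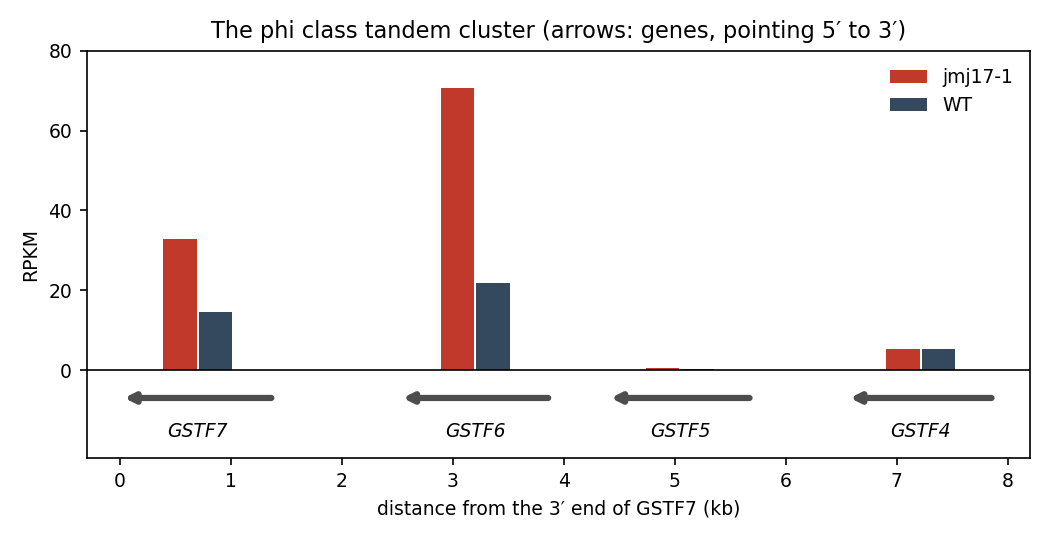
RPKM (bars, 1 library each; jmj17-1 red at left, WT dark at right) of the tandem genes GSTF7, GSTF6, GSTF5 and GSTF4, placed along the cluster by distance from the 3′ end of GSTF7 in kb; arrows show each gene pointing 5′ to 3′. The red bars of GSTF7 and GSTF6 reach 32.9 and 70.7 RPKM against 14.5 and 21.8 RPKM for WT, while GSTF4 shows equal bars near 5 RPKM and GSTF5 is barely visible.

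The 250 bases before the annotated start of GSTF7 are shown as the window of a gene past 2-fold that holds no other gene. They are from RefSeq TAIR10.1, 5′ to 3′ on the strand of the gene, from the minus strand of chr1:659981-660230. Capitals mark matches on either strand to TGACG (the core bound by TGA factors), TTGAC (the core of the W box of WRKY factors), CACGTG (the G box) and GCCGCC (the GCC box of ethylene response factors).
GSTF7: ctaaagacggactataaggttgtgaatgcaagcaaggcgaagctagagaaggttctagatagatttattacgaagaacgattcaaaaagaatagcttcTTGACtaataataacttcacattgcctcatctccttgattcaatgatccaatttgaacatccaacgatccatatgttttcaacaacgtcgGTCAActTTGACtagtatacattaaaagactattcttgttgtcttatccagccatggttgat
This window held 3 matches to TTGAC and none to the other motifs. On the gene strand they end 148 and 51 bases before the start, and the match on the other strand ends 58 bases before it.

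The windows of GSTF2, GSTF3, GSTF7, GSTF8, GSTF9, GSTF10, GSTF12 and GSTF14 were searched, each before the start of the longest coding transcript. For GSTF8 that start, and so the window, lies inside the annotated gene. The W box core TTGAC was present in 6 of them, GSTF3, GSTF7, GSTF8, GSTF10, GSTF12 and GSTF14. In the genome it was present in 44.8% of 27442 such windows, 1 per gene. GSTF7, GSTF8 and GSTF14 held 2 or more matches to TTGAC, as did 14.0% of those windows. TGACG was present in GSTF3 and GSTF10, against 18.8% of windows. CACGTG and GCCGCC were present in 0 of the 8, against 6.64% and 1.88% of windows. GSTF2, past 2-fold, held none of the 4 motifs, and its window lies largely in the neighbouring gene AT4G02530. A match describes these letters only and is not a measured binding site.

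Other glutathione genes were set beside the phi class. The tau class, the other large plant class of glutathione transferases, had 23 of 27 genes analysed, with 0 past 2-fold in either direction, 3 more than 1.5-fold higher and a median of 0.09. GSTU24, induced by foreign chemicals, stood at 41.7 RPKM in jmj17-1 and 21.4 RPKM in WT, a log2 ratio of 0.93. GSTU4 stood at 1.67 RPKM in jmj17-1 and 0.674 RPKM in WT, 2.48-fold as a plain ratio (1.69 to 3.62) but 0.68 on the log2 scale of RPKM + 1. The 27 tau genes summed to 1526.7 RPKM in jmj17-1 and 1379.1 RPKM in WT, 1.11-fold, so both classes had pools of like size. The 12 genes of the remaining classes had 11 analysed, 0 past 2-fold and a median of 0.11. Among them the dehydroascorbate reductase gene DHAR2 stood at 47.2 RPKM in jmj17-1 and 36.6 RPKM in WT. GSTZ1, whose enzyme acts in tyrosine breakdown, stood at 34.7 RPKM in jmj17-1 and 28.8 RPKM in WT.

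Of the genes for glutathione synthesis and recycling, 9 of 10 were analysed and 0 passed 2-fold. All 9 had a log2 ratio above 0, with a median of 0.18, where 11478 of all 18969 features lay above 0. CLT3, a transporter of glutathione and its precursor out of the plastid, stood at 19.8 RPKM in jmj17-1 and 12.2 RPKM in WT. The glutathione reductase gene GR1 stood at 49.7 RPKM in jmj17-1 and 40.2 RPKM in WT. CLT3 was the only gene of this list past 1.5-fold. For conjugate transport and breakdown, 7 of 8 genes were analysed, with 0 past 2-fold and a median of 0.12. The vacuolar conjugate pump gene ABCC2 stood at 19.4 RPKM in jmj17-1 and 14.96 RPKM in WT, and the glutamyl transferase gene GGT4 at 10.00 RPKM in jmj17-1 and 11.9 RPKM in WT. In the glutathione peroxidase family, 7 of 8 genes were analysed, with 0 past 2-fold and a median of 0.16. Its member GPX6 stood at 209.1 RPKM in jmj17-1 and 160.1 RPKM in WT, and GPX7 at 2.498 RPKM in jmj17-1 and 1.86 RPKM in WT.

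The pathways in which single phi genes act were also examined. Of the camalexin genes, the pathway linked to GSTF6, 5 of 7 were analysed, with 0 past 2-fold and a median of 0.12. The genes too low to be analysed, CYP71A12 and CYP71A13, were higher in jmj17-1 as plain ratios, 2.69-fold (1.39 to 5.72, about 30 reads in jmj17-1 and 13 in WT) and 2.31-fold (1.27 to 4.33). Of the 5 analysed, 3 lay above 0 and 2 below. CYP71B6 stood at 21.2 RPKM in jmj17-1 and 18.7 RPKM in WT. CYP79B2, which makes indole-3-acetaldoxime, stood at 32.3 RPKM in jmj17-1 and 28.6 RPKM in WT. The 2 lower genes were CYP79B3, at 27.6 RPKM in jmj17-1 and 31.1 RPKM in WT, and PAD3. PAD3 stood at 1.69 RPKM in jmj17-1 and 1.99 RPKM in WT, 0.851-fold (0.677 to 1.06). Of the anthocyanin genes, the pathway served by GSTF12, 9 of 15 were analysed, with 0 past 2-fold and a median of 0.09. The flavanone hydroxylase gene F3H stood at 14.9 RPKM in jmj17-1 and 7.45 RPKM in WT, but it overlaps AT3G51238 of the other strand, listed at 0 RPKM in jmj17-1 and at 6.91 RPKM in WT. LDOX, a late step of the pathway, stood at 2.21 RPKM in jmj17-1 and 3.47 RPKM in WT. UGT75C1, also late, stood at 1.89 RPKM in jmj17-1 and 1.69 RPKM in WT. DFR, another late gene, stood at 1.36 RPKM in jmj17-1 and 2.25 RPKM in WT, 0.604-fold (0.468 to 0.782). The late genes 5MAT and UGT79B1, too low to be analysed, were at 0.557-fold (0.358 to 0.858) and 0.724-fold (0.473 to 1.09). The regulator PAP1, too low to be analysed, stood at 0.549 RPKM in jmj17-1 and 0.231 RPKM in WT, 2.37-fold as a plain ratio (1.21 to 4.88). The analysed anthocyanin genes thus lay on both sides of WT, 5 above 0 and 4 below. GSTZ1, GR1, GGT4, GPX6, GPX7 and CYP71B6 also overlap genes of the other strand, so their levels are uncertain.

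Salicylic acid signalling and the TGA factors, known to act on stress-inducible phi genes, were covered by 10 genes, all analysed. None was at least 2-fold higher and 2 were at least 2-fold lower, with a list median of -0.03. Of all 18969 analysed features, 110 were at least 2-fold lower and 74 at least 2-fold higher. WRKY70, a regulator of salicylate responses, stood at 4.59 RPKM in jmj17-1 and 18.5 RPKM in WT, a log2 ratio of -1.80. PR2, a glucanase gene induced by salicylate, stood at 0.882 RPKM in jmj17-1 and 2.84 RPKM in WT, a log2 ratio of -1.03. The list had members on both sides of WT, 5 above 0 and 5 below. PR1 and PR5, also induced by salicylate, had log2 ratios of 0.09 and 0.15.

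**Figure D5:**
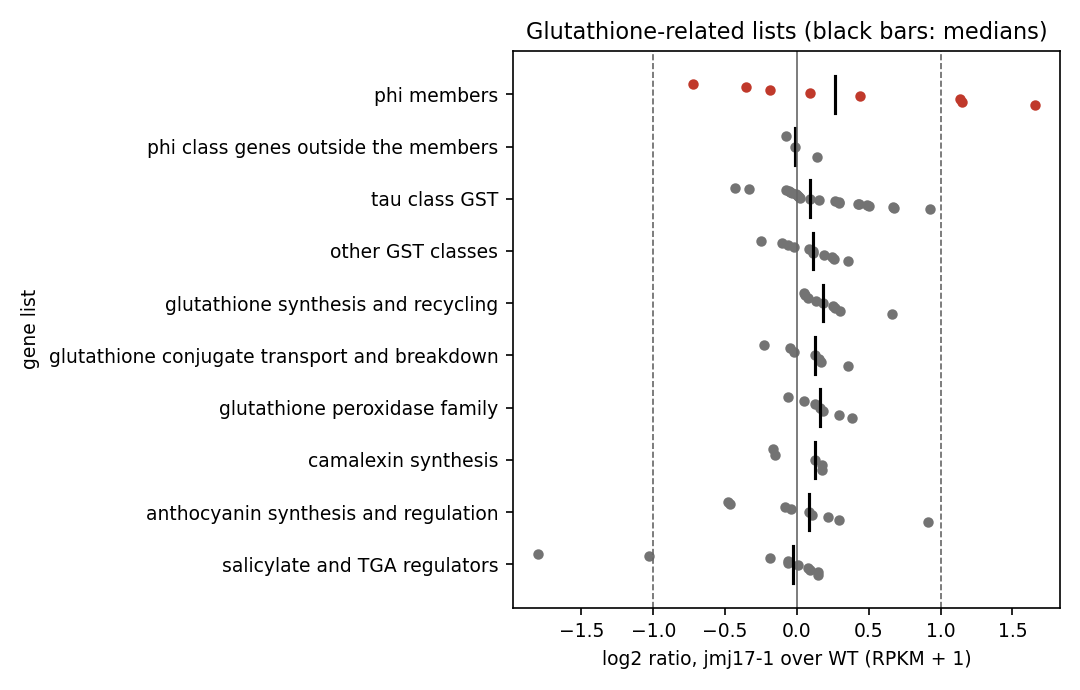
Log2 ratio, jmj17-1 over WT (RPKM + 1), of each analysed gene (points) in the phi members (red) and in the other gene lists (grey), with black bars at list medians and dashed lines at 2-fold. The phi members hold the 3 points beyond the upper line, and WRKY70 and PR2 of the salicylate and TGA list lie beyond the lower line.

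Organ markers were compared because phi genes differ between organs. The 4 shoot markers all had log2 ratios below 0, none past 2-fold, and summed to 15560.4 RPKM in jmj17-1 and 17497.8 RPKM in WT. They included LHCB2.3 at 346.4 RPKM in jmj17-1 and 524.1 RPKM in WT, and LHCA3 at 2050.0 RPKM in jmj17-1 and 2533.6 RPKM in WT. The shoot list was thus lower in the mutant library by less than 1.5-fold in sum. Of the 13 root markers, 8 lay above 0, as did 11478 of all 18969 features, and none passed 2-fold on the scale of RPKM + 1. The other 5 lay below 0, down to a log2 ratio of -0.29. The median of the root list was 0.05, against 0.04 over all features. The root markers summed to 172.0 RPKM in jmj17-1 and 175.4 RPKM in WT. WOX5, of the quiescent centre, stood at 2.06 RPKM in jmj17-1 and 0.943 RPKM in WT, 2.18-fold as a plain ratio (1.56 to 3.13), and PRP3, of root hairs, at 19.9 RPKM in jmj17-1 and 14.4 RPKM in WT. The seed list summed to 2.55 RPKM in jmj17-1 and 14.4 RPKM in WT. Its 2 analysed genes were both storage protein genes. CRU3 stood at 0.551 RPKM in jmj17-1 and 6.34 RPKM in WT, and CRA1 at 1.70 RPKM in jmj17-1 and 7.39 RPKM in WT. SESA1, SESA4 and OLEO1 were too low to be analysed. SESA1 had 0 reads in jmj17-1 and about 7 in WT, and SESA4 had about 2 in each. OLEO1 had about 10 reads in jmj17-1 and 19 in WT. The part of these organ markers in the phi class differences was not tested.

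The authors' deposited table of features listed at p 0.05 held 4 of the 9 members, GSTF2, GSTF6, GSTF7 and GSTF10, against 2.16% of analysed features, and all 4 were also in the authors' deposited table at 0.01. In the authors' deposited table the p-values were 3.51e-07 for GSTF6, 4.02e-06 for GSTF2, 4.83e-05 for GSTF10 and 0.00731 for GSTF7. Those of GSTF9 (0.196), GSTF14 (0.227), GSTF8 (0.355), GSTF12 (0.689) and GSTF3 (0.880) in the authors' deposited table were above both limits. The authors' p is computed from the RPKM levels with no spread between seedlings, so it depends on abundance. GSTF10, at 1.36-fold, was therefore listed with a smaller p than GSTF7, at 2.28-fold, and GSTF14, at 0.576-fold, was not listed.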

How the data were processed

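RNA of 1 jmj17-1 and 1 WT library was analysed. Per the labels, total RNA was extracted with an RNeasy kit and TruSeq RNA libraries were prepared. The authors deposited RPKM for each feature, and the submitters' processing notes name the build TAIR10. No source used here gives the aligner, counter, feature lengths or strand use. The Z score and p-value deposited by the authors equal, for 26743 rows within 1e-06, those of 2 proportions with RPKM entered as counts per 1000000, which ignores reads, length and replicate spread. There were 0 sample columns left unassigned.

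Features with a mean of at least 1 RPKM (18969) were analysed as log2((jmj17-1 + 1)/(WT + 1)), with a fixed limit of 2-fold and no p-value, since there is 1 library per genotype. Depth was recovered from low RPKM values, of which 1052 of 1184 (88.9%) had a ratio between the libraries that, once divided by the depth ratio of 1.19, was that of whole numbers up to 20 within a relative 1e-05. With RefSeq exonic lengths, 90 of 305 loci gave exactly 45403267 reads for jmj17-1 and 53890006 for WT. Read numbers are approximate, because the authors' lengths are unknown. Of 18952 features above 0 in both libraries, 72.5% gave whole reads in both, within 1e-06, at some length from 100 to 20000 bases. GSTF6, GSTF7 and GSTF10 did not, and the cause was not tested. Intervals are 95% Clopper-Pearson and cover counting error only.

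Loci, coding sequences and windows before gene starts came from RefSeq TAIR10.1. The window of GSTF6 is not reported here. No protein table was used, so identities are of coding bases, not of proteins as planned. The named genes were all members, the other phi genes, neighbours of the members and, of each other list, the genes past 2-fold or otherwise the 2 with the largest absolute ratio; PR1, PR5, UGT75C1, PAP1, CYP71A12 and CYP71A13 were added after their values were seen; LPA1 and the overlapping genes follow from their position. The members and lists were chosen with earlier results of these data known. Scripts were tested on simulated data and used Python 3.11.15, pandas 2.3.3, numpy 2.4.6, scipy 1.17.1 and Biopython 1.88.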

Additional observations from a re-analysis of the deposited data

How the results depend on the processing

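The count of 3 members past 2-fold held with a pseudocount of 0.1, with no filter, with a minimum mean of 5 RPKM, with the median set to 0, with organelle features left out of the total, with upper quartiles set equal and with quantile normalization. It was 2 with a pseudocount of 5 RPKM, where GSTF7 reached 0.96. With pairs of close relatives summed it was 2 of 6 (GSTF2 with GSTF3 at 1.14, GSTF6 with GSTF7 at 1.49, GSTF9 with GSTF10 at 0.19). It was 4 at 1.5-fold, where GSTF14 joined. No member changed sign under these settings. The log2 ratio ranged from 1.501 to 1.70 for GSTF6, from 1.08 to 1.16 for GSTF2, from -0.79 to -0.52 for GSTF14 and from -0.46 to -0.18 for GSTF12. Over all features, 184 passed, against 301 with a pseudocount of 0.1, 74 with a pseudocount of 5 and 653 at 1.5-fold, which follow from the added value and the limit.

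No paired analysis was possible because there was 1 library per genotype, and for the same reason no replicate was left out. GSTF3, at about 31 reads in jmj17-1 and 28 in WT, had an interval of the fold from 0.763 to 2.27. That interval holds folds below and above 1, so these reads do not settle whether GSTF3 was higher or lower.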
